A study of Homo sapiens with 12 samples.

Results

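The annexin genes ANXA1, ANXA2, ANXA3, ANXA4, ANXA5, ANXA6, ANXA7 and ANXA11 were followed in RNA-seq libraries of 2 acute myeloid leukaemia (AML) cell lines. The genes were taken by symbol from a named list and not by a cutoff on a measured value. Earlier results of these data were known when genes and lists were chosen. All 8 were found among the 13881 genes of the deposited table, and all 8 were among the 13353 genes tested. The established lines KG-1 and MOLM-14 were each cultured for 96 h with DMSO, the solvent control, or with ASLAN003, an inhibitor of dihydroorotate dehydrogenase, which makes pyrimidines for RNA and DNA. Each of the 4 groups held 3 libraries of total RNA. The labels state no dose. Nor do they say whether the 3 libraries of a group came from separate cultures, so the p-values reflect how far these libraries scatter, and that scatter may be purely technical.

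Annexins are proteins that bind the acidic phospholipids of the inner membrane face when calcium rises. They share a core of annexin repeats and differ in their N-terminal tails, through which several of them bind S100 proteins. In myeloid cells they take part in membrane repair, vesicle traffic, phagocytosis and the cell-surface activation of plasminogen, and secreted annexin A1 acts through formyl peptide receptors to limit neutrophil recruitment.

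The sequences before the RefSeq starts of ANXA1 and ANXA2 are shown because ANXA1 had the largest rise of the 8 in both lines, because ANXA2 responded differently in the lines, and because the sequences differ in make-up. RefSeq and GENCODE 29 place these starts differently, and the ANXA2 stretch lies inside the GENCODE span of the gene (chr15:60347134-60402883). The RefSeq windows of 250 bases before each start (GRCh38.p14) were read, and the stretch that no GENCODE 29 exon covers is printed 5′ to 3′ on the gene's strand, with motif matches on either strand in capitals. ANXA1 is chr9:73151615-73151756, plus strand, and its capitals mark a CCAAT box read on the opposite strand. ANXA2 is chr15:60398044-60398236, minus strand, and its capitals mark an AP-1 site (TGANTCA) and a run of 3 overlapping GC boxes (GGGCGG).
ANXA1: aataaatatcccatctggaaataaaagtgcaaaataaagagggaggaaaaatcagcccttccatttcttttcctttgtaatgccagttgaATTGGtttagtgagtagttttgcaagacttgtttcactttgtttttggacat
ANXA2: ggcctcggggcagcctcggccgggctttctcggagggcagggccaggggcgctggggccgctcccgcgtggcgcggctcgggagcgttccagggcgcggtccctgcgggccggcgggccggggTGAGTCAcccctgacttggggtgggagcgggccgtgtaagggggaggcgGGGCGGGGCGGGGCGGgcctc

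The ANXA1 stretch had a GC content of 33.8% and the ANXA2 stretch of 81.3%. Over the whole window ANXA1 stood at 38.4% GC and ANXA2 at 78.0%, beside a mean of 57.2% over 35116 RefSeq promoters. Both windows held a TATA box (TATAAA) 31 bases before the RefSeq start, a motif found in 10.7% of all promoters. ANXA1 held CCAAT boxes 160 and 77 bases before the start (32.0% of promoters hold any). Both TATA boxes and the CCAAT box at 77 bases lie outside the printed stretches, in the part that overlaps GENCODE exons. ANXA2 held GC boxes at 78, 73 and 68 bases (42.6% of promoters) and an AP-1 site at 127 bases (6.57% of promoters). The ANXA3 window (64.0% GC) held the ETS core of PU.1, GAGGAAG, 36 bases before the start, as do 11.2% of promoters. Over the windows of the 8 genes, GC boxes were found for 6 genes, CCAAT boxes for 4, TATA boxes for 3, the PU.1 core for 2 and the C/EBP letters TTNNGNAAT for 2 (9.85% of promoters). The glucocorticoid half-site AGAACA was found for 1 gene (12.4% of promoters). Where a gene has several RefSeq starts, a match in any of their windows was counted. The shares of promoters are per single window, so the gene counts and these shares are unlike measures.

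Levels are given in FPKM, fragments scaled to transcript length and library depth, which allows levels of different genes to be compared. A principal component that held 61.8% of the variance separated the lines, and a component with 16.3% separated the treatments. The library MOLM-14 ASLAN003 replicate 1 stood apart on the latter, at 36.2 against 14.6 and 9.4 in the other MOLM-14 ASLAN003 libraries, so the MOLM-14 rises of annexins, and those of several partner and pathway genes, are also given without it. Of 8 myeloid line markers, the surface protein CD33 stood between 23.5 and 46.5 FPKM in all 12 libraries. ANPEP went from 15.6 to 142.7 FPKM in KG-1 and was at most 0.88 FPKM in MOLM-14, and MPO, myeloperoxidase, went from 160.3 to 37.9 FPKM in KG-1 and from 20.8 to 4.83 FPKM in MOLM-14. CD34, a progenitor marker for which KG-1 cells are known, reached at most 0.17 FPKM in any library. No erythroid marker of 8 is in the table, and of 6 T and B cell markers CD3D alone is, at up to 0.22 FPKM. The 2 listed megakaryocyte markers of 5 summed to at most 3.44 FPKM, and COL1A1, the only listed fibroblast marker of 5, reached 10.7 FPKM. The 3 listed epithelial markers of 5 summed to between 18.2 and 36.3 FPKM over all libraries, mostly KRT8 in KG-1 and KRT18 in MOLM-14. The summed FPKM of 6 monocyte markers ran from 206 to 244 in KG-1 DMSO libraries and from 1200 to 1410 under ASLAN003, and in MOLM-14 from 743 to 793 and from 3010 to 4260. Over the 5 neutrophil markers that are in the table, the sum ran from 876 to 1240 and from 26200 to 30400 in KG-1, and from 154 to 224 and from 1070 to 3800 in MOLM-14. Under ASLAN003 these sums rested mostly on LYZ and on S100A8 and S100A9. In KG-1, 5 of 6 monocyte and 5 of 5 neutrophil markers were called higher (limma), beside 19.4% of all tested genes. In MOLM-14 these counts were 5 and 4, beside 9.69%, and 4 and 3 without the library that stands apart. CSF1R stood at 9.71 and 10.4 FPKM in KG-1. In bulk RNA, fewer cells of a type and less RNA per cell cannot be told apart.

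Among the annexins of the named list, the lines expressed the same 7 at over 10 FPKM in DMSO, but in a different order. ANXA8 and ANXA8L1, described below, are not on that list. Their means were 16.5 and 19.0 FPKM in KG-1 DMSO libraries and 5.88 and 0.35 FPKM in MOLM-14 DMSO libraries. ANXA4, which binds calcium and membranes in secretory epithelia and is known to stiffen lipid bilayers, stood at 936, 887 and 883 FPKM in MOLM-14 and at 84.7, 72.4 and 72.9 FPKM in KG-1 (chr2:69644425-69827100, plus strand, GENCODE 29). All MOLM-14 libraries lay far above all KG-1 libraries, and the mean was 11.8-fold lower in KG-1 (log2 difference -3.54 ± 0.09 SE, limma, Benjamini-Hochberg adjusted p = 2.29e-11). In MOLM-14 this placed ANXA4 above 99.0% of the listed genes. AAK1 overlaps ANXA4 on the opposite strand and reached at most 28.26 FPKM.

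ANXA6, an annexin with a duplicated core that is known for its part in endosome and cholesterol traffic, showed the opposite order (chr5:151100712-151157882, minus strand). It stood at 124, 110 and 116 FPKM in KG-1 DMSO libraries and at 29.4, 31.9 and 27.7 FPKM in MOLM-14. The ranges did not overlap, and the KG-1 mean was 3.93-fold higher (log2 1.94 ± 0.11 SE, adjusted p = 1.65e-08). ANXA11, which tethers RNA granules to lysosomes, was 1.56-fold higher in KG-1 (91.7 ± 6.22 against 58.8 ± 5.41 FPKM, SD, n = 3, log2 0.63 ± 0.13 SE, limma adjusted p = 0.00114).

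ANXA3, an annexin of neutrophil granules, was low in KG-1, at 3.45, 2.24 and 4.36 FPKM, and was listed at 0.33, 0 and 0 FPKM in MOLM-14 (log2 1.95 ± 0.24 SE, adjusted p = 2.36e-05). No fold is given against a group with libraries at 0. ANXA1, ANXA2, ANXA5 and ANXA7 differed between the lines by -0.07 to 0.06 log2 units and did not pass the test (adjusted p from 0.543 to 0.924). Of the 8 annexins, 3 were higher and 1 was lower in KG-1, where 27.1% of all tested genes were called higher and 22.1% lower. The KG-1 libraries were all above the MOLM-14 libraries for 3 annexins and all below for 1, against 34.3% and 29.0% of all tested genes. The median log2 difference was 0.02 over the annexins and 0.06 over all tested genes.

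**Figure D1:**
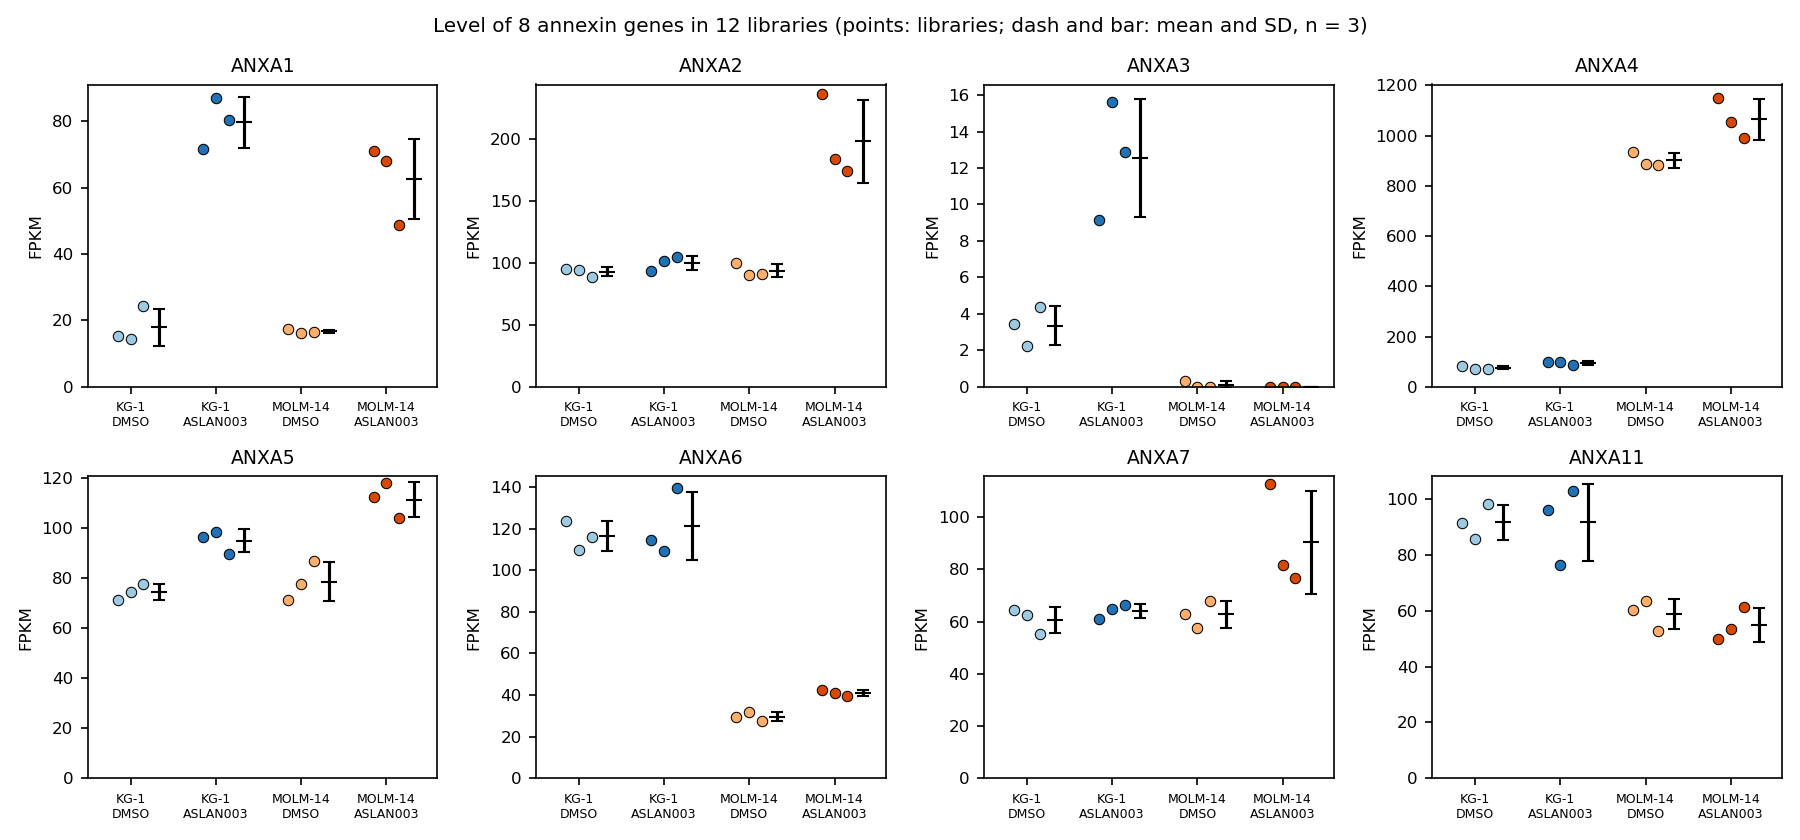
FPKM of each of the 8 annexin genes in each library, by line and treatment. Points are libraries, the dash is the mean and the bar the SD (n = 3); ANXA1 libraries under ASLAN003 lie above all DMSO libraries in both lines, and ANXA4 lies near 900 FPKM or above in MOLM-14 alone.

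Within KG-1 DMSO libraries the order of levels ran from ANXA6 (116.5 FPKM) through ANXA2 (92.6), ANXA11 (91.7), ANXA4 (76.7), ANXA5 (74.5) and ANXA7 (60.7) to ANXA1 (17.9) and ANXA3 (3.35). The ranges of ANXA2 and ANXA11, and those of ANXA4 and ANXA5, overlapped, so these neighbours did not differ beyond their spread. In MOLM-14 DMSO libraries the order ran from ANXA4 through ANXA2 (93.6 FPKM), ANXA5 (78.7), ANXA7 (62.8), ANXA11 (58.8) and ANXA6 (29.7) to ANXA1 (16.7) and ANXA3 (0.11). Only the ranges of ANXA7 and ANXA11 overlapped among these neighbours.

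ASLAN003 was set against DMSO within each line. ANXA1 rose in both lines, ANXA5 rose in both by less, ANXA3 and ANXA4 rose in KG-1, and ANXA2, ANXA6 and ANXA7 rose in MOLM-14. No annexin fell. ANXA11 passed in neither line. In KG-1, 4 of 8 annexins passed as higher and 0 as lower (limma), where 19.4% of all tested genes were called higher and 14.3% lower. At an unadjusted p under 0.05 the KG-1 counts were also 4 and 0. All ASLAN003 libraries lay above all DMSO libraries for the same number, 4, and all below for 0, against 31.4% and 24.5% of all tested genes. The median log2 change was 0.20 over the annexins and 0.05 over all tested genes. In MOLM-14, 5 of 8 passed as higher and 0 as lower, where 9.69% of all tested genes were called higher and 3.33% lower. At an unadjusted p under 0.05 these counts were 6 and 0. Libraries did not overlap for 6 annexins, all higher, against 17.7% of all tested genes with all libraries higher and 8.17% with all lower. The median was 0.48 over the annexins and 0.08 over all tested genes. Without the MOLM-14 library that stands apart, 4 passed as higher and 0 as lower.

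The split of all calls moved with the scaling of the libraries. In KG-1, 57.5% of the called genes were higher, and 42.7% after centring on the median and 46.1% after quantile normalization. In MOLM-14 the share was 74.5%, and 44.1% and 57.1% under those scalings. No annexin that passed changed direction under them, while the small KG-1 changes of ANXA2, ANXA6 and ANXA7, which did not pass, turned negative after centring, and that of ANXA6 also after rescaling to the sum without abundant gene classes. Centring ended the KG-1 calls of ANXA4 (adjusted p = 0.142) and ANXA5 (0.0794) and the MOLM-14 calls of ANXA6 (0.0998) and ANXA7 (0.0999). Quantile normalization ended those of ANXA4 (0.0921), ANXA6 (0.0602) and ANXA7 (0.0608). Rescaling ended those of ANXA4 in KG-1 (0.0689) and ANXA7 in MOLM-14 (0.0519). Fitting MOLM-14 alone ended those of ANXA5 (0.0575), ANXA6 (0.0877) and ANXA7 (0.124).

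ANXA1, the glucocorticoid-induced annexin that inhibits phospholipase A2 and signals through formyl peptide receptors (chr9:73151757-73170393, plus strand), had the largest change in each line among the 8 genes. In KG-1 it stood at 15.2, 14.3 and 24.3 FPKM with DMSO and at 71.6, 86.9 and 80.4 FPKM with ASLAN003. The groups were far apart, with KG-1 DMSO replicate 3 the highest of the control libraries. The mean rose 4.44-fold (log2 2.12 ± 0.19 SE, limma adjusted p = 4.70e-06). ANXA1 stood in MOLM-14 at 17.3, 16.3 and 16.4 FPKM with DMSO and at 71.0, 68.1 and 48.8 FPKM with ASLAN003. Replicate 3 was the lowest ASLAN003 library and still lay above every DMSO library. The mean rose 3.75-fold (log2 1.83 ± 0.19 SE, adjusted p = 0.000140), and the log2 change was 1.73 without replicate 1 of MOLM-14 ASLAN003 (adjusted p = 0.000568). The changes of the lines differed by 0.30 ± 0.26 SE on the log2 scale, which did not pass (adjusted p = 0.538). The monocyte and neutrophil marker sums above, which rested mostly on LYZ, S100A8 and S100A9 under ASLAN003, also rose. The part of these markers in the rise of ANXA1 was not tested.

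The formyl peptide receptors that annexin A1 engages were present in KG-1 alone. FPR1 stood at 0.43, 1.60 and 0.53 FPKM in KG-1 DMSO libraries and at 22.0, 17.2 and 37.7 FPKM under ASLAN003 (30.0-fold, log2(FPKM + 1) change 3.83 ± 0.29 SE, adjusted p = 1.50e-06). FPR2 stood at 1.81, 1.37 and 1.74 FPKM and at 31.3, 29.8 and 31.6 FPKM (18.8-fold, log2(FPKM + 1) change 3.6 ± 0.16 SE, adjusted p = 4.36e-08). In MOLM-14 neither receptor exceeded 0.19 FPKM in any library. The change in KG-1 minus that in MOLM-14 was 3.76 for FPR1 (adjusted p = 0.000264) and 3.53 for FPR2 (adjusted p = 5.51e-06). ANXA1 therefore rose in both lines, and the RNA of its receptors in KG-1.

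The neutrophil serine proteases that cleave the annexin A1 tail were high in the DMSO libraries. PRTN3, proteinase 3, stood at 4897, 4326 and 6378 FPKM in KG-1 DMSO libraries and at 2093, 2134 and 4030 FPKM under ASLAN003. The groups did not overlap, and the mean fell to 0.529 of the control (log2 -0.97 ± 0.21 SE, adjusted p = 0.00363). In MOLM-14 its change was -0.08 ± 0.21 SE (adjusted p = 0.854). ELANE, neutrophil elastase, fell in both lines, to 0.318 of the control in KG-1 (log2 -1.66, adjusted p = 1.50e-06) and to 0.543 in MOLM-14 (log2 -0.88, adjusted p = 0.00109). PLA2G4A, the cytosolic phospholipase A2, rose 2.22-fold in KG-1 (log2 1.06 ± 0.14 SE, adjusted p = 8.27e-05) and changed by 0.10 ± 0.14 SE in MOLM-14 (adjusted p = 0.679). The difference between the lines was 0.96 for PLA2G4A (adjusted p = 0.00922).

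ANXA2, which forms a complex with S100A10 that binds plasminogen at the cell surface (chr15:60347134-60402883, minus strand), rose in MOLM-14 but did not pass in KG-1. In MOLM-14 it stood at 100.0, 89.9 and 91.1 FPKM with DMSO and at 236, 184 and 174 FPKM with ASLAN003. The library that stands apart was the highest, and the other 2 also lay far above the controls. The mean rose 2.11-fold (log2 1.06 ± 0.11 SE, adjusted p = 0.000165), and the log2 change without that library was 0.93 (adjusted p = 0.000115). In KG-1 it stood at 95.0, 94.4 and 88.5 FPKM with DMSO and at 93.2, 101 and 104 FPKM with ASLAN003. These ranges overlapped, and the change was 0.10 ± 0.11 SE (adjusted p = 0.521). The KG-1 change minus the MOLM-14 change was -0.96 ± 0.16 SE (adjusted p = 0.00322), and -0.82 without the library that stands apart (adjusted p = 0.000838).

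ANXA3 (chr4:78551519-78610451, plus strand) rose in KG-1, from 3.45, 2.24 and 4.36 FPKM to 9.16, 15.6 and 12.9 FPKM. The groups did not overlap, and the mean rose 3.74-fold (log2 1.64 ± 0.24 SE, adjusted p = 0.000207). In MOLM-14 it was listed at 0 in 5 of 6 libraries, with no ASLAN003 library above 0, and no fold can be given. The KG-1 change minus the MOLM-14 change was 1.78 ± 0.34 SE (adjusted p = 0.00674), and this call ended with a pseudocount of 0.1 (log2 2.59, adjusted p = 0.0656). Of the 8 annexins, ANXA3 was the only member called higher and ANXA2 the only member called lower in the test of the difference between the lines, where 5.05% and 4.89% of all tested genes were called. The median difference was -0.04 over the annexins and -0.03 over all tested genes.

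**Figure D2:**
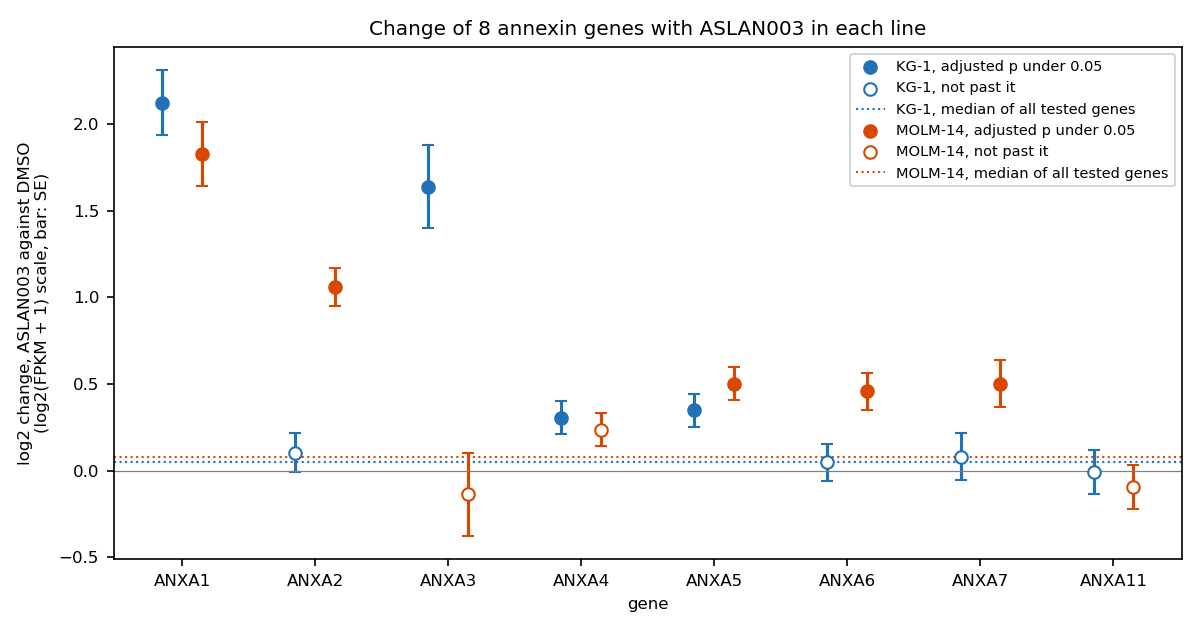
Log2 change with ASLAN003 (± SE from limma) of each annexin gene in KG-1 and MOLM-14, with filled symbols at an adjusted p under 0.05. Dotted lines mark the median of all tested genes, 0.05 in KG-1 and 0.08 in MOLM-14; ANXA1 lies far to the high side in both lines, ANXA2 in MOLM-14 and ANXA3 in KG-1.

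ANXA5, the annexin used as a probe for phosphatidylserine on dying cells (chr4:121667955-121697113, minus strand), rose modestly in both lines. In KG-1 it stood at 71.2, 74.6 and 77.6 FPKM with DMSO and at 96.5, 98.6 and 89.9 FPKM with ASLAN003. The mean was 1.28-fold higher with no overlap (log2 0.35 ± 0.10 SE, adjusted p = 0.0138), a call that ended without KG-1 DMSO replicate 1 (adjusted p = 0.0594) and without KG-1 ASLAN003 replicate 2 (0.0524). The MOLM-14 libraries stood at 71.3, 77.9 and 86.9 FPKM with DMSO and at 112, 118 and 104 FPKM with ASLAN003. The mean was 1.42-fold higher, again with no overlap (log2 0.50 ± 0.10 SE, adjusted p = 0.00527). The log2 change was 0.49 without the library that stands apart (adjusted p = 0.01).

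ANXA4 was higher in all ASLAN003 libraries of both lines, by a small fold. In KG-1 it stood at 84.7, 72.4 and 72.9 FPKM with DMSO and at 99.6, 99.1 and 86.1 FPKM with ASLAN003 (1.24-fold, log2 0.31 ± 0.09 SE, adjusted p = 0.0249). That call ended without KG-1 DMSO replicate 2 (adjusted p = 0.1), DMSO replicate 3 (0.0893), ASLAN003 replicate 1 (0.0932) or ASLAN003 replicate 2 (0.0860). In MOLM-14 it stood at 936, 887 and 883 FPKM with DMSO and at 1149.5, 1054 and 989.6 FPKM with ASLAN003 (1.18-fold, log2 0.24 ± 0.09 SE, adjusted p = 0.123). The MOLM-14 groups did not overlap either, but the change did not pass, and the difference between the lines was 0.07 (adjusted p = 0.801). Without the library that stands apart the MOLM-14 change was 0.18 (adjusted p = 0.240).

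ANXA6 rose in MOLM-14, from 29.4, 31.9 and 27.7 FPKM to 42.3, 41.1 and 39.8 FPKM. The mean was 1.38-fold higher with no overlap (log2 0.46 ± 0.11 SE, adjusted p = 0.0152), and 0.44 without the library that stands apart (adjusted p = 0.0308). The call ended without MOLM-14 DMSO replicate 3 (adjusted p = 0.0554). In KG-1 the libraries stood at 124, 110 and 116 FPKM with DMSO and at 114, 109 and 140 FPKM with ASLAN003, which overlap (log2 0.05 ± 0.11 SE, adjusted p = 0.773). The difference between the lines was -0.41 ± 0.15 SE and did not pass (adjusted p = 0.109), but passed without KG-1 ASLAN003 replicate 3 (0.0371).

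ANXA7, also called synexin, which promotes the fusion of granule membranes (chr10:73375101-73414076, minus strand), stood at 62.9, 57.4 and 67.9 FPKM in MOLM-14 DMSO libraries and at 113, 81.7 and 76.5 FPKM under ASLAN003. The highest value was the library that stands apart. The mean was 1.44-fold higher (log2 0.50 ± 0.14 SE, adjusted p = 0.0297), and without that library the log2 change was 0.33 and no longer passed (adjusted p = 0.0577). The call also ended without MOLM-14 DMSO replicate 1 (0.0734) or replicate 2 (0.105). In KG-1 the ANXA7 ranges overlapped (log2 0.08 ± 0.14 SE, adjusted p = 0.702). ANXA11 (chr10:80150889-80205572, minus strand) stood in KG-1 at 91.2, 85.7 and 98.1 FPKM with DMSO and at 95.9, 76.3 and 103 FPKM with ASLAN003, and in MOLM-14 at 60.2, 63.3 and 52.8 FPKM and at 49.9, 53.4 and 61.5 FPKM. Its groups overlapped in both lines, with changes of -0.01 ± 0.13 SE (adjusted p = 0.968) and -0.10 ± 0.13 SE (adjusted p = 0.674).

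Under ASLAN003, 6 annexins differed between the lines, where 4 had done so in DMSO. These comparisons share libraries with the treatment comparisons above. ANXA3 (log2 3.73 ± 0.24 SE, adjusted p = 5.42e-08), ANXA6 (2.95-fold, adjusted p = 1.16e-07) and ANXA11 (1.67-fold, adjusted p = 0.000375) were higher in KG-1. ANXA4 (11.2-fold, adjusted p = 3.20e-11), ANXA2 (1.99-fold, adjusted p = 1.10e-05) and ANXA7 (1.41-fold, adjusted p = 0.0109) were lower in KG-1. These 3 and 3 of 8 stand beside 27.9% and 25.2% of all tested genes called, and the counts were also 3 and 3 without the library that stands apart. All KG-1 libraries lay above all MOLM-14 libraries for 4 annexins and below for 4, against 29.3% and 26.5% of all tested genes. The median log2 difference was 0.06 over the annexins and 0.04 over all tested genes. ANXA5 (log2 -0.23 ± 0.10 SE, adjusted p = 0.0603) and ANXA1 (0.36 ± 0.19 SE, adjusted p = 0.127) did not pass. ANXA5 passed without MOLM-14 DMSO replicate 3 (adjusted p = 0.0488) or MOLM-14 ASLAN003 replicate 3 (0.0418), and under all 3 other scalings (0.0353 to 0.0421), which made the lower count 4.

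In KG-1 the order of levels under ASLAN003 was ANXA6, ANXA2, ANXA5, ANXA4, ANXA11, ANXA1, ANXA7 and ANXA3. The ranges of neighbours from ANXA2 to ANXA1 overlapped. ANXA1, far below ANXA7 in DMSO (17.9 against 60.7 FPKM), lay above it under ASLAN003 (79.6 against 64.1 FPKM). In MOLM-14 the order was ANXA4, ANXA2, ANXA5, ANXA7, ANXA1, ANXA11, ANXA6 and ANXA3. There ANXA1 (62.6 ± 12.1 FPKM) overlapped ANXA11 (54.9 ± 5.95 FPKM, SD, n = 3) and lay above ANXA6 (41.1 FPKM), which had exceeded it in DMSO.

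The summed FPKM of the 8 annexins was 549, 516 and 537 in KG-1 DMSO libraries and 641, 652 and 682 under ASLAN003. In MOLM-14 it was 1278, 1224 and 1226 with DMSO and 1774, 1600 and 1494 with ASLAN003. Every ASLAN003 library lay above every DMSO library in both lines (exact permutation test over libraries, two-sided, p = 0.10 each, the smallest that 3 against 3 allows). As a share of all listed FPKM the sum went from 0.0696% to 0.0964% in KG-1 and from 0.148% to 0.211% in MOLM-14. With mitochondrial, ribosomal and histone genes and small RNAs left out of the total, the shares were 0.103% and 0.122% in KG-1 and 0.243% and 0.307% in MOLM-14.

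The make-up of the summed RNA of the 8 annexins differed between the lines. ANXA8 and ANXA8L1, described below, are not in the sum (30.3 and 42.0 FPKM in KG-1 ASLAN003, 25.1 and 2.96 FPKM in MOLM-14 ASLAN003). ANXA4 made up 72.6% of the sum in MOLM-14 DMSO libraries and 65.6% under ASLAN003, while in KG-1 it held 14.3% and 14.5%. In KG-1 ANXA6 held the largest share, 21.8% with DMSO and 18.4% with ASLAN003. ANXA1 went from 3.35% to 12.1% of the sum in KG-1 and from 1.34% to 3.84% in MOLM-14. The ANXA2 share moved in opposite directions, from 17.4% to 15.1% in KG-1 and from 7.53% to 12.1% in MOLM-14. Each of these pairs of shares had groups that did not overlap (exact permutation p = 0.10), except ANXA4 in KG-1 (exact permutation p = 0.90). A share also depends on the other members. ANXA2 itself did not fall in KG-1 (92.6 and 99.6 FPKM), and ANXA4 FPKM was higher in all MOLM-14 ASLAN003 libraries although its share was lower.

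**Figure D3:**
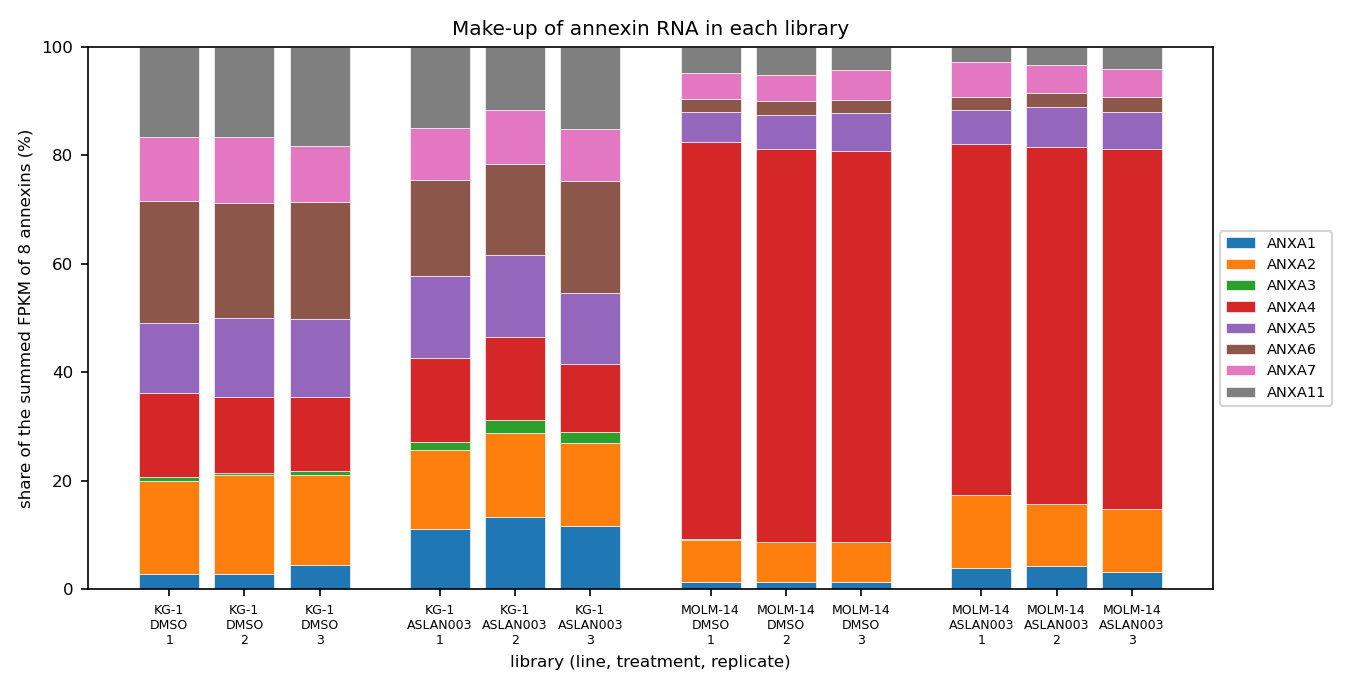
Share of each annexin in the summed FPKM of the 8 annexins, in percent, as a stacked bar per library. ANXA4 fills over 60% of every MOLM-14 bar, and the ANXA1 segment is wider under ASLAN003 in both lines.

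The S100 genes whose proteins bind annexin tails rose in both lines. S100A10, the partner of annexin A2, stood at 47.1, 38.5 and 53.5 FPKM in KG-1 DMSO libraries and at 121, 141 and 176 FPKM under ASLAN003 (log2 1.63 ± 0.16 SE, adjusted p = 9.35e-06). The MOLM-14 values were 83.1, 86.6 and 93.5 FPKM and at 236, 208 and 171 FPKM (log2 1.2 ± 0.16 SE, adjusted p = 0.000716). The groups did not overlap in either line, so S100A10 rose in KG-1, where ANXA2 did not pass. The ratio of S100A10 to ANXA2 FPKM went from 0.503 to 1.46 in KG-1 (exact permutation p = 0.10) and from 0.941 to 1.04 in MOLM-14, where the groups overlapped (exact permutation p = 0.40).

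S100A11, a partner of annexins A1 and A2, went from a mean of 386 to 845 FPKM in KG-1 (log2 1.13, adjusted p = 3.15e-06) and from 190 to 361 FPKM in MOLM-14 (log2 0.91, adjusted p = 0.000140). It rose by less than ANXA1, and the ratio of S100A11 to ANXA1 went from 22.7 to 10.7 in KG-1 and from 11.4 to 5.84 in MOLM-14 (exact permutation p = 0.10 each). S100A6, calcyclin, rose in both lines (log2 1.38, adjusted p = 6.21e-06, and 1.35, adjusted p = 7.68e-05). S100A4, which binds annexin A2 and non-muscle myosin, stood at 319, 309 and 344 FPKM in KG-1 DMSO libraries and at 1072, 1017 and 1230 FPKM under ASLAN003. In MOLM-14 it stood at 205, 194 and 213 FPKM and at 860, 761 and 717 FPKM. These groups lay far apart (log2 1.77, adjusted p = 2.01e-07, and 1.93, adjusted p = 6.82e-07). Without the library that stands apart, the MOLM-14 changes of S100A10, S100A11, S100A6 and S100A4 were 1.10, 0.83, 1.23 and 1.85, with adjusted p of at most 0.00210.

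The genes of the penta-EF-hand family that were listed with the annexin partners showed no shared direction. SRI, sorcin, fell in KG-1 (98.8 ± 4.10 to 60.2 ± 6.96 FPKM, SD, n = 3, log2 -0.71, limma adjusted p = 0.000779) and changed by 0.10 in MOLM-14 (limma adjusted p = 0.658). The lines differed by -0.81 (adjusted p = 0.0127). PDCD6, also called ALG-2, fell slightly in KG-1 (log2 -0.26, adjusted p = 0.0374), a call that ended without any KG-1 library but ASLAN003 replicate 3 and without MOLM-14 DMSO replicate 1 or 2 (0.0509 to 0.125). PEF1 was higher in MOLM-14 (log2 0.49, adjusted p = 0.0429), a call that ended under 14 of 21 alternatives, among them without each MOLM-14 library but ASLAN003 replicate 3 (0.0672 to 0.148) and without KG-1 DMSO replicate 1 or 2 or KG-1 ASLAN003 replicate 2 (0.0532 to 0.0638). AHNAK, a giant scaffold bound by the annexin A2 complex, had changes of 0.29 (adjusted p = 0.552) and 1.07 (adjusted p = 0.0570) and passed in neither line. Its MOLM-14 change passed without MOLM-14 DMSO replicate 1 (0.0453), ASLAN003 replicate 2 (0.0233) or ASLAN003 replicate 3 (0.0355). Without the library that stands apart, the AHNAK change in MOLM-14 was 0.55 and did not pass (limma adjusted p = 0.101). That library stood at 130.9 FPKM, and the other MOLM-14 ASLAN003 libraries at 41.9 and 47.5 FPKM. The partner list, which includes PEF1, held 9 genes. In KG-1, 5 rose and 2 fell, beside 19.4% and 14.3% of all tested genes (median log2 1.06, and 0.05 over all tested genes). In MOLM-14, 5 rose and 0 fell, beside 9.69% and 3.33% (all-gene median 0.08, limma, 6 and 0 at an unadjusted p under 0.05, median 0.92), and 4 rose without the library that stands apart.

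**Figure D4:**
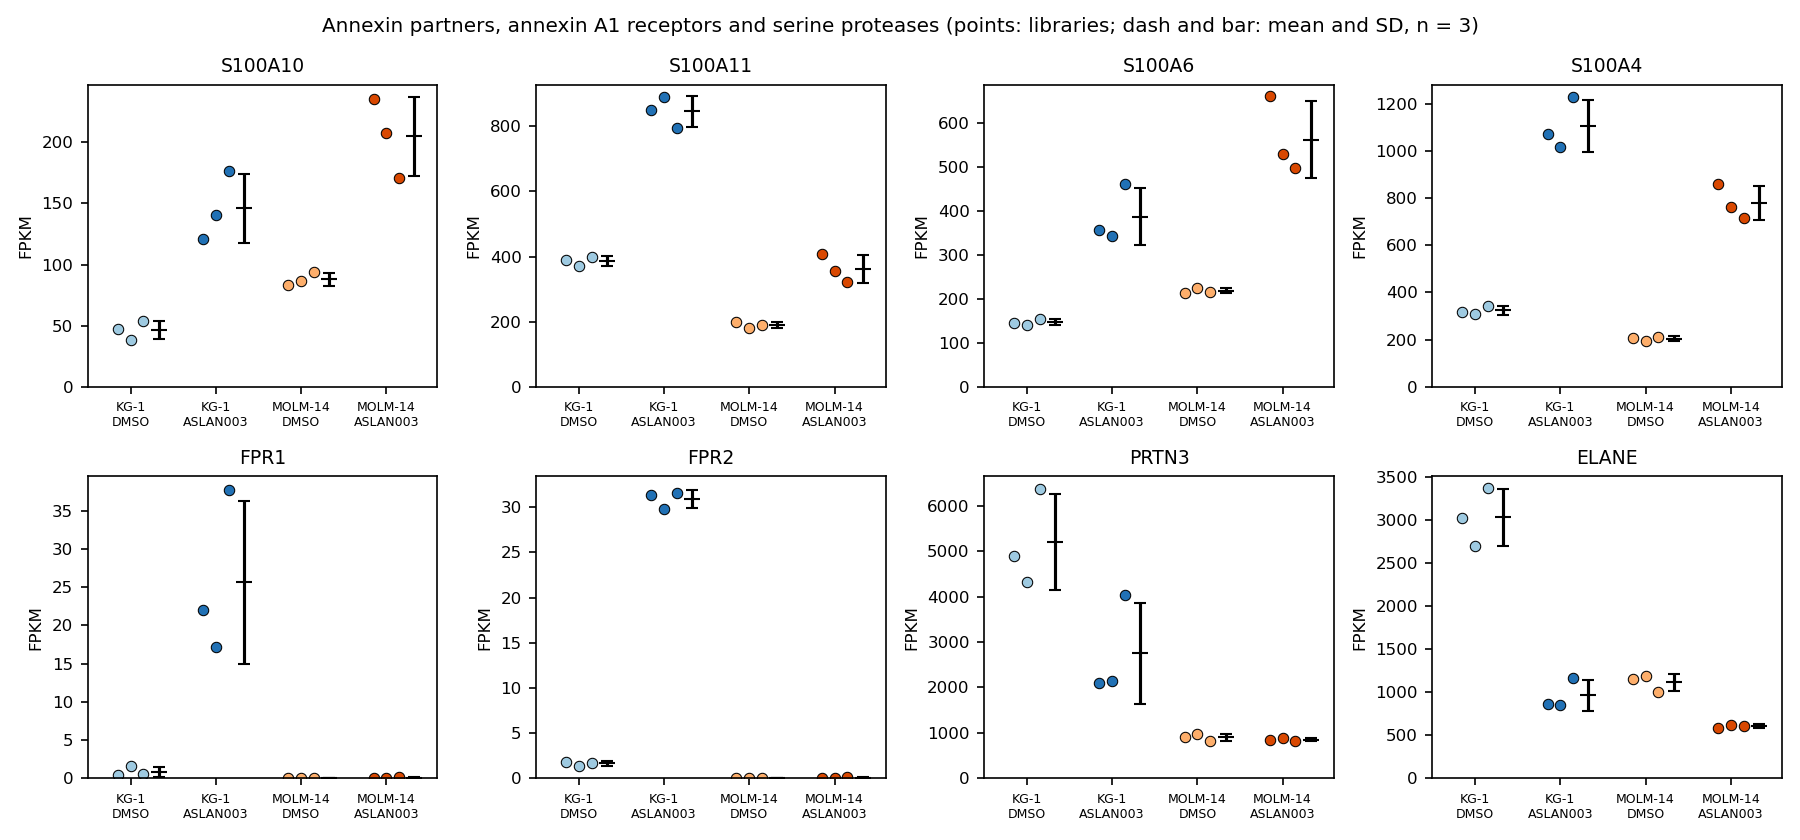
FPKM by library of S100 partners (S100A10, S100A11, S100A6, S100A4), annexin A1 receptors (FPR1, FPR2) and proteases that cleave annexin A1 (PRTN3, ELANE). Points are libraries, the dash is the mean and the bar the SD (n = 3); the S100 genes are higher under ASLAN003 in both lines, the receptors in KG-1 alone, and ELANE is lower in both lines.

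The table holds 4 further rows of annexin name. ANXA8 (chr10:47460162-47484158) stood at 15.5, 13.0 and 21.1 FPKM in KG-1 DMSO libraries and at 27.7, 28.4 and 34.6 FPKM under ASLAN003. In MOLM-14 it stood at 8.84, 4.01 and 4.80 FPKM and at 37.0, 19.7 and 18.5 FPKM. Its changes were 0.86 ± 0.29 SE (adjusted p = 0.0361) and 1.91 ± 0.29 SE (adjusted p = 0.00141). The KG-1 call ended without any KG-1 library but DMSO replicate 3, with adjusted p between 0.0663 and 0.133. ANXA8L1 (chr10:46375627-46391784), a near-identical copy, changed by 1.13 and 1.30 and did not pass (adjusted p = 0.0535 and 0.0583), although its libraries did not overlap. The KG-1 change passed without MOLM-14 ASLAN003 replicate 1 (adjusted p = 0.00238). Without the library that stands apart, the MOLM-14 changes were 1.61 for ANXA8 (adjusted p = 0.00325) and 0.68 for ANXA8L1 (adjusted p = 0.113). Reads can be split between these copies, so each value is uncertain. The pseudogene ANXA2P2 stood at a ratio of 0.011 to 0.019 of ANXA2. ANXA2R, whose name refers to an annexin A2 receptor, did not pass with treatment and was lower in KG-1 than in MOLM-14 in DMSO (7.67 ± 1.45 against 26.1 ± 4.76 FPKM, SD, n = 3, log2 -1.64, limma adjusted p = 2.80e-05).

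Plasminogen activation is the surface reaction that the annexin A2 complex serves. PLAU, urokinase, rose from 16.9, 16.2 and 18.5 FPKM to 64.2, 63.7 and 59.8 FPKM in KG-1 (log2 1.80, adjusted p = 1.15e-06). In MOLM-14 it rose from 39.2, 43.7 and 39.6 FPKM to 95.5, 67.7 and 68.4 FPKM (log2 0.89, adjusted p = 0.00117). Its receptor PLAUR rose in KG-1 (20.9 to 73.9 FPKM, log2 1.76, adjusted p = 1.41e-05) and changed by 0.24 in MOLM-14 (adjusted p = 0.437). The inhibitor SERPINB2 rose in both lines from low levels, from a mean of 0.18 to 4.06 FPKM in KG-1 (log2(FPKM + 1) change 2.09, adjusted p = 0.000235) and from 0.74 to 6.67 FPKM in MOLM-14 (2.03, adjusted p = 0.00158). Without the library that stands apart the MOLM-14 changes were 1.63 for SERPINB2 (adjusted p = 0.00199) and 0.72 for PLAU (adjusted p = 0.00121). The plasminogen receptors PLGRKT (log2 -0.89, adjusted p = 0.00493) and ENO1 (log2 -0.75, adjusted p = 0.000187) fell in KG-1, and the ENO1 call ended after quantile normalization (adjusted p = 0.752). Of the 5 genes tested, 3 rose and 2 fell in KG-1, beside 19.4% and 14.3% of all tested genes (median 1.76). In MOLM-14, 2 rose and 0 fell, beside 9.69% and 3.33% of all tested genes (limma, 2 and 0 at an unadjusted p under 0.05, median 0.24).

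Among 21 genes of membrane repair and ESCRT-III, the machinery that pinches off damaged membrane, 9 rose and 2 fell in KG-1, beside 19.4% and 14.3% of all tested genes (median log2 0.33). In MOLM-14, 5 rose and 0 fell, beside 9.69% and 3.33% (limma, 7 and 0 at an unadjusted p under 0.05, median 0.24). DYSF, dysferlin, a repair protein that binds annexins A1 and A2, went from 23.5 to 93.4 FPKM in KG-1 (log2 1.94, adjusted p = 1.99e-05) and from 13.2 to 27.1 FPKM in MOLM-14 (log2 0.96, adjusted p = 0.0109). EHD1, a membrane-shaping ATPase, rose in KG-1 (log2 2.06, adjusted p = 6.64e-06). The 2 genes that fell in KG-1 were CAPNS1 (331.4 to 218.8 FPKM) and CHMP4A (55.7 to 36.8 FPKM). CAPN2, a calcium-activated protease, rose in MOLM-14 (30.8 to 69.5 FPKM, log2 1.13, adjusted p = 0.000536) and changed by 0.01 in KG-1 (adjusted p = 0.974), and the lines differed (adjusted p = 0.00489). MYOF, myoferlin, rose in both lines (log2 1.07, adjusted p = 0.0135, and 1.58, adjusted p = 0.00477). Its KG-1 call ended without KG-1 ASLAN003 replicate 1 (0.0525) or replicate 2 (0.0527). CAPN1, another calpain, rose in KG-1 (log2 0.79, adjusted p = 0.000600), and the ESCRT-III subunit CHMP2A in MOLM-14 (log2 0.44, adjusted p = 0.00741), a call that ended after centring on the median (0.0773). CHMP2A libraries did not overlap in KG-1 either, at 94.8, 95.2 and 98.0 FPKM with DMSO and 119.5, 118.9 and 139.6 FPKM with ASLAN003. Without the library that stands apart, its KG-1 change was 0.385 (limma adjusted p = 0.00317). The lines then differed by -0.06 (0.781). Leaving out the library that stands apart, the MOLM-14 changes were 0.77 for DYSF (adjusted p = 0.0328), 1.31 for MYOF (0.0133) and 0.97 for CAPN2 (0.000720).

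Phosphatidylserine is the lipid that annexin A5 binds. The tests covered 11 genes that make it, convert it or set its side of the membrane. In KG-1, 5 rose and 1 fell, beside 19.4% and 14.3% of all tested genes (median 0.34). In MOLM-14, 2 rose and 0 fell, beside 9.69% and 3.33% (limma, 3 and 1 at an unadjusted p under 0.05, median 0.12). TMEM30A, the subunit that flippases need, rose in both lines (log2 0.79, adjusted p = 0.000340, and 0.63, adjusted p = 0.00595). ATP11B, a flippase, rose in KG-1 (log2 0.67, adjusted p = 0.00123). The scramblase XKR8 was higher in KG-1 (log2 0.80, adjusted p = 0.0258), and that call ended without any KG-1 library but DMSO replicate 1 (0.0575 to 0.101). PLSCR1, also of the scramblase family by name, was higher in MOLM-14 (log2 0.64, adjusted p = 0.0160), which ended without MOLM-14 DMSO replicate 1 (0.0644) or replicate 3 (0.0596). In KG-1 its libraries did not overlap either, at 32.1, 30.9 and 29.2 FPKM with DMSO and 41.5, 55.9 and 39.7 FPKM with ASLAN003. Without the library that stands apart, the KG-1 change of PLSCR1 was 0.54 (limma adjusted p = 0.0121). The lines then differed by -0.04 (0.922). PTDSS1, a phosphatidylserine synthase, fell in KG-1 (99.5 to 67.3 FPKM, log2 -0.56, adjusted p = 0.000419). Of 13 genes of phosphatidylserine recognition and apoptotic cell uptake, 7 rose and 1 fell in KG-1, beside the same 19.4% and 14.3% (median 0.54). In MOLM-14, 1 rose, a share near the 9.69% of all tested genes, and 0 fell (3.33% of all tested genes, limma, 3 and 3 at an unadjusted p under 0.05, median 0.07), and without the library that stands apart 1 rose and 1 fell. The scavenger receptor CD36 rose in both lines, 24.7-fold in KG-1 and 3.34-fold in MOLM-14. The log2(FPKM + 1) changes were 3.28 (limma adjusted p = 7.77e-07) and 1.64 (limma adjusted p = 0.000794). CD36 means went from 0.583 to 14.4 FPKM in KG-1 and from 10.2 to 34.0 FPKM in MOLM-14. The KG-1 fold thus has a control mean under 1 FPKM. LRP1, an endocytic receptor, rose in KG-1 from 0.303 to 3.41 FPKM (log2 1.74, adjusted p = 0.000332). The integrin ITGAV was higher in KG-1 (log2 0.87, adjusted p = 0.0407), and that call ended without any KG-1 library (0.0656 to 0.133) or without MOLM-14 DMSO replicate 2 (0.0523). GAS6, a bridging ligand, fell from 28.2 to 3.93 FPKM in KG-1 (log2 -2.64, adjusted p = 3.15e-06) and changed by 0.14 in MOLM-14 (adjusted p = 0.732).

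Other genes whose proteins bind phospholipids in the presence of calcium (copines, synaptotagmins, conventional protein kinases C and others) numbered 17 tested. In KG-1, 8 rose and 1 fell, beside 19.4% and 14.3% of all tested genes (median 0.29). In MOLM-14, 5 rose and 0 fell, beside 9.69% and 3.33% (limma, 8 and 0 at an unadjusted p under 0.05, median 0.34), and 6 rose and 1 fell without the library that stands apart. PRKCA rose in both lines (log2 2.13, adjusted p = 1.98e-06, and 0.78, adjusted p = 0.00976), by more in KG-1 (adjusted p = 0.00428). PRKCB did likewise (log2 1.71, adjusted p = 7.75e-07, and 0.59, adjusted p = 0.00606, difference adjusted p = 0.00160). MCTP1 rose in both lines (log2 1.04, adjusted p = 0.00235, and 0.98, adjusted p = 0.0106), and the synaptotagmin SYT11 in MOLM-14 (log2 1.06, adjusted p = 0.00509). The SYT11 change was 0.89 without the library that stands apart (adjusted p = 0.0139), and the MOLM-14 change of PRKCA 0.64 (0.0272). The copine CPNE7 fell in KG-1 (log2 -1.26, adjusted p = 0.0118), and that call ended without KG-1 DMSO replicate 1 (0.0538), DMSO replicate 2 (0.0598) or ASLAN003 replicate 2 (0.0507). The copine CPNE8 rose by 0.91 in KG-1 (adjusted p = 0.000142) and by 0.98 in MOLM-14 (adjusted p = 0.000632).

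ANXA1 is known as a glucocorticoid-responsive gene, so the receptor and its response genes were read beside it. Of 10 genes tested, 0 rose and 2 fell in KG-1, beside 19.4% and 14.3% of all tested genes (limma, 1 and 3 at an unadjusted p under 0.05, median 0.00). In MOLM-14, 1 rose and 0 fell, beside 9.69% and 3.33% (2 and 0 at an unadjusted p under 0.05, median 0.11). The 2 lower and the 1 higher are near those shares. Without the library that stands apart, 1 rose and 2 fell in KG-1 and 0 rose and 0 fell in MOLM-14. The receptor NR3C1 had changes of 0.33 (adjusted p = 0.112) and 0.29 (adjusted p = 0.236), and its KG-1 change passed without MOLM-14 ASLAN003 replicate 1 (0.0309). TSC22D3, also called GILZ, had changes of 0.04 (adjusted p = 0.892) and 0.44 (adjusted p = 0.138), and the latter passed without MOLM-14 ASLAN003 replicate 2 (0.0468). FKBP5 (log2 -0.47, adjusted p = 0.0139) and ZBTB16 (log2 -1.13, adjusted p = 0.00173) fell in KG-1. The FKBP5 call ended without KG-1 DMSO replicate 2 (0.0509) or KG-1 ASLAN003 replicate 3 (0.0510), and the ZBTB16 call with a pseudocount of 0.1 (0.143). SGK1 rose in MOLM-14 (log2 1.48, adjusted p = 0.0235), a call that ended without MOLM-14 DMSO replicate 2 (0.0918), DMSO replicate 3 (0.0738), ASLAN003 replicate 1 (0.0654) or ASLAN003 replicate 2 (0.0700). PER1, DUSP1, KLF9, MT2A and HSD11B1 passed in neither line, though KLF9 passed as lower in KG-1 under 5 alternatives (0.00462 to 0.0446).

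For each annexin whose group means spread at least 2-fold, the tested genes with the smallest root mean square difference from its centred log2 profile over the 12 libraries are named, as a description. ANXA1 lay nearest to the tetraspanin CD82 (0.263 log2 units), the cytokine IL16 (0.267) and S100A4 (0.291). CD82 went from 13.9 to 54.1 FPKM in KG-1 and from 14.7 to 39.99 FPKM in MOLM-14. ANXA2 lay nearest to BHLHE40 (0.156), LIPA, the lysosomal acid lipase (0.165), and TEX2 (0.169). LIPA stood at 37.8 and 35.3 FPKM in KG-1 and went from 40.02 to 70.8 FPKM in MOLM-14. ANXA3 lay nearest to GBP5 (0.248), COL4A1 (0.251) and PLBD1 (0.274), of which PLBD1 was listed at 0 in MOLM-14 group means. ANXA4 lay nearest to ZFP57 (0.163), AQP3 (0.166) and FYN (0.184). These genes stood between 9.70 and 17.8 FPKM in MOLM-14 and under 1 FPKM in KG-1. The profiles are of log2(FPKM + 1), where the added 1 limits the spread of genes near 0. Nearness on this scale therefore need not mean the same fold as ANXA4. ANXA6 lay nearest to B4GALT5 (0.135), TSPAN3 (0.138) and GUSB (0.166). The group means of ANXA5, ANXA7 and ANXA11 spread 1.5-fold, 1.49-fold and 1.67-fold, so no such genes were named for them.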

How the data were processed

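RNA-seq of 12 libraries, 3 in each of 4 groups, was deposited by the authors as a table of log2(FPKM + 1) values per gene. Per the submitters' processing notes, the tools were RSEM 1.2.25, STAR 2.4.2a and bcl2fastq 2.17.1.14, and the build hg38 (GRCh38). The annotation, and whether counting used the strand of the stranded total RNA kit named in the labels, are not given here. Values were turned back to FPKM by 2 to the power of the value minus 1. Library depth is not given in the table. The steps between low FPKM values gave 18000000 to 19000000 fragments per library with transcript lengths from the full GENCODE set and 17500000 to 37900000 with the basic set, so the depth, and with it the counting error, is uncertain.

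Genes at 1 FPKM or more in at least 3 libraries were tested on log2(FPKM + 1) with limma 3.58.1 (R 4.3.3), with 4 group means and no batch or replicate term, eBayes with trend and robust settings, two-sided, and Benjamini-Hochberg adjustment over all 13353 genes. A gene was called at an adjusted p under 0.05. Fold changes on this scale understate the change of low genes; FPKM means or their folds are given beside most of the low genes named. Exact permutation tests over libraries, two-sided, served for sums, shares and ratios (Python 3.11.15). The fit was tested on simulated data. Gene positions are from GENCODE 29, which matched 13784 identifiers (99.3%), and promoter windows from RefSeq GRCh38.p14, found for all 8 genes.

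The genes and lists were chosen with earlier results of these data known. Named are all 8 annexins, the other annexin rows, all genes of pathway lists with 10 or fewer tested genes (of the marker lists, summed levels and a few genes chosen after their values were seen), up to 4 called genes with the largest change per treatment comparison of longer lists, and the 3 genes nearest in profile to annexins with a 2-fold spread. Also named are the membrane repair genes that fell in KG-1. Alternatives were other pseudocounts, filters, scalings and fits, a replicate block, and each library left out. Replicate numbers were not shown to pair libraries.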

Additional observations from a re-analysis of the deposited data

Results flagged for a closer look

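The response of 2 annexins to ASLAN003 differed between the lines in a test of the difference itself, the KG-1 change minus the MOLM-14 change in limma. For ANXA3 the difference was 1.78 on the log2 scale (adjusted p = 0.00674), with higher libraries under ASLAN003 in 3 of 3 in KG-1 and no MOLM-14 ASLAN003 library above 0. This call ended with a pseudocount of 0.1 (log2 2.59, adjusted p = 0.0656). For ANXA2 it was -0.96 (adjusted p = 0.00322), with all 3 MOLM-14 ASLAN003 libraries above all DMSO libraries and overlapping ranges in KG-1.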

How the results depend on the processing

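The rises of ANXA1 in both lines, ANXA2 in MOLM-14 and ANXA3 in KG-1 kept their calls under all 21 alternatives, with log2 changes of 1.99 to 2.35, 1.68 to 2.00, 0.91 to 1.15 and 1.44 to 1.89. Centring on the median shifted the change of all genes by -0.122 in KG-1 and -0.149 in MOLM-14 (log2). Annexin calls fell from 4 to 2 in KG-1 after centring, and from 5 to 3 in MOLM-14 after centring, to 3 after quantile normalization and to 2 with each line fitted alone. Rescaling without abundant classes left 3 calls in KG-1 and 4 in MOLM-14. The difference between the lines had 1 call with a pseudocount of 0.1. With each library left out in turn, calls ran from 2 (without KG-1 ASLAN003 replicate 2) to 4 in KG-1, from 4 to 5 in MOLM-14 and from 2 to 3 for the difference. The calls were 4 in every such fit for the lines in DMSO, and 6 to 7 under ASLAN003. KG-1 changes that had not passed turned negative after centring for ANXA2 (-0.0188), ANXA6 (-0.0736) and ANXA7 (-0.0429), and after rescaling without abundant classes for ANXA6 (-0.0113). With a library left out, the KG-1 change of ANXA6 ran from -0.0588 to 0.1179 and that of ANXA11 from -0.0963 to 0.1161. The DMSO difference between the lines then ran from -0.1671 to 0.1938 for ANXA1, from -0.0435 to 0.0327 for ANXA2 and from -0.1085 to 0.0203 for ANXA7. The cause of these changes was not tested. Of 831 alternative values for single annexins, 788 kept direction and side of the threshold, 25 lost a call, 6 gained one and 12 reversed.

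With the replicate number as a block (replicate block), calls stayed at 4, 5, 2, 4 and 6 in the 5 comparisons. Same-numbered libraries correlated in their deviations by 0.041, 0.020 and 0.032 in KG-1 and by 0.1, -0.002 and 0.040 in MOLM-14, and not every library correlated best with its own number. With 3 libraries per group, correlations this small cannot decide whether the numbers pair libraries. FPKM below about 1 rest on few fragments, which limits ANXA3 in MOLM-14.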
